A study of Homo sapiens with 6 samples.

Results

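The genes described here are the 3 transforming growth factor β (TGF-β) ligands and 6 genes of the protein families that hold or tether a latent TGF-β ligand. Of these 6, LTBP2 belongs by family only and does not bind the latent ligand. The 9 genes are described as the renal tubular cell line HK-2 expressed them with or without added TGF-β1. They were chosen by name, as the entries on the primary chromosomes for the ligands TGFB1, TGFB2 and TGFB3, the latent TGF-β binding proteins LTBP1, LTBP2, LTBP3 and LTBP4, and the cell surface anchors LRRC32 and NRROS. These are 9 of the 41497 named genes of the tables. The count filter kept 8 of them among the 14860 genes tested, and LRRC32 fell below it. Each of the 8 had at least 11 counts in every library of both groups.

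The study asked how gene expression in kidney tubule cells responds to TGF-β1, a cytokine that drives kidney fibrosis. HK-2 cells are human and derive from the proximal tubule epithelium, immortalised for growth in culture, and every library came from cells of the same line and of WT genotype. The 3 control libraries came from cells labelled as control and the 3 TGF-β1 libraries from cells given TGF-β1, all taken at 24 h. The labels describe a medium with fetal bovine serum, while the study's methods describe TGF-β treatment without serum, and whether control cells were kept without serum was not stated. As a single line grown in culture, HK-2 lacks the fibroblasts, endothelium and leukocytes of the kidney. The added TGF-β1 was a protein, so the TGFB1 reads came from the cells' own transcript.

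TGF-β is secreted in a form that cannot signal. Each precursor is cut by a furin-like convertase into a propeptide, the latency-associated peptide, and the mature cytokine, and the peptide stays folded around the cytokine. In most cells the peptide is bound by disulfide bonds to an LTBP, which docks the complex on fibronectin and fibrillin in the matrix. LTBP1 and LTBP3 bind all ligand forms, LTBP4 binds latent TGF-β1 weakly, and LTBP2 is a matrix protein of the same family that does not bind latent TGF-β. LRRC32, also named GARP, takes the place of an LTBP on regulatory T cells and platelets, and NRROS does so on microglia and other myeloid cells. Integrins αvβ6 and αvβ8 release or expose the cytokine by gripping an Arg-Gly-Asp motif in the peptide of TGF-β1 and TGF-β3.

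The ligand sequences below are shown because they hold the sites that the convertase and the integrins act on. Neither cutting nor binding at these sites was measured here. Each is 27 bases of coding sequence on GRCh38, read 5′ to 3′ on the gene's strand from the GENCODE annotation. Capitals mark the codons of the Arg-Gly-Asp motif or of the 4 residues that end the propeptide, where the convertase cuts. Residues are counted from 1 at the initiator methionine.
TGFB1 Arg-Gly-Asp: accggccgcCGAGGTGACctggccacc
TGFB3 Arg-Gly-Asp: gaccatggcCGTGGAGATctggggcgc
TGFB1 convertase site: caaagctccCGGCACCGCCGAgccctg
TGFB2 convertase site: accaaccggCGGAAGAAGCGTgctttg
TGFB3 convertase site: gggggtcagAGGAAGAAGCGGgctttg

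The Arg-Gly-Asp codons lie at chr19:41342005-41342013 on the minus strand in TGFB1 (residues 244 to 246 of 390) and at chr14:75963453-75963461 on the minus strand in TGFB3 (residues 261 to 263 of 412). The TGFB2 precursor of 414 residues held 0 such motifs. The convertase site reads Arg-His-Arg-Arg in TGFB1 (chr19:41341909-41341920, residues 275 to 278), and Arg-Lys-Lys-Arg in both TGFB2 (chr1:218436110-218436121, plus strand, residues 299 to 302) and TGFB3 (chr14:75963342-75963353, residues 297 to 300). In all 3 ligands 112 residues follow the cut as the mature cytokine. Each site lies within a coding exon and spans no splice junction.

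The ligand promoters are shown because TGFB1 and TGFB2 moved in opposite directions. Both stretches end at the base before the RefSeq transcription start on GRCh38.p14, on the gene's strand. Capitals in TGFB1 mark the letters GGGCGG, the GC box of Sp1, on either strand. Capitals in TGFB2 mark CAGACA, the core of the CAGA box bound by SMAD3 and SMAD4, and the E-box CACGTG, which share the letters CA.
TGFB1 upstream, 246 bases, chr19:41353923-41354168, minus strand: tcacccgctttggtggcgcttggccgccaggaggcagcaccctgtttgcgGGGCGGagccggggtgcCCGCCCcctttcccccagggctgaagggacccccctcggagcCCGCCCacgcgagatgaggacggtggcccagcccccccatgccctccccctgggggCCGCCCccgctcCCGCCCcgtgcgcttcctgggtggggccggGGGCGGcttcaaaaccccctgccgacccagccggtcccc
TGFB2 upstream, 250 bases, chr1:218345086-218345335, plus strand: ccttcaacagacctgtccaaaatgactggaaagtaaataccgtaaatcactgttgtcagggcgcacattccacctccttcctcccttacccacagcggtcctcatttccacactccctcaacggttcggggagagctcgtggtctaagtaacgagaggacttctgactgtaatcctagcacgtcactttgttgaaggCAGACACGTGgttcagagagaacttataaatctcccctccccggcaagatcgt

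The TGFB1 window held 6 GC boxes and was 76.8% G or C, against a median of 58% over all 35116 windows of this length. The TGFB2 window was 50.4% G or C and held no GC box, with the CAGA core starting 53 bases and the E-box 49 bases before the start. The whole TGFB2 window lies within the span of the antisense RNA gene TGFB2-AS1. Over 13 start sites of 8 of the 9 genes (LRRC32 had no window), searched over 250 upstream bases on both strands, GGGCGG occurred in 7 windows, CAGACA in 4, CACGTG in 2 and the cyclic AMP element TGACGTCA in 1. The AP-1 site TGANTCA was found in none. Across all windows 42.6% held GGGCGG, 13.6% CAGACA, 6.34% CACGTG, 1.65% TGACGTCA and 6.57% TGANTCA. A match of letters is not evidence of binding.

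Libraries held 21.9 to 26.9 M counts (megacounts). Levels are given as TPM, a depth-scaled and per-length unit in which different genes can be set side by side, and differences as log2 fold changes with their standard errors (SE) from counts. A gene was called at an adjusted p under 0.05 by the edgeR quasi-likelihood F test, with Benjamini-Hochberg adjustment over all 14860 genes. Treatment moved a large share of the transcriptome: 44.3% of all genes were called, 22.2% higher and 22.1% lower. Epithelial markers were present in part. KRT8, KRT18, EPCAM and PAX8 were expressed, while LRP2 (megalin), a defining proximal tubule gene, had 0 reads and HNF4A had 1 read in all 6 libraries together. The list moved with treatment in both directions: all 13 of its 18 genes that were tested were called, 6 higher, such as CDH2 (log2 fold change 1.05) and KRT8 (0.65), and 7 lower, such as KRT19 (-1.34), EPCAM (-1.25) and PAX8 (-0.73).

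All 8 tested genes were called, 6 of them higher with TGF-β1 and 2 lower, against the 44.3% of all genes just given. In all 8 the scaled counts of the groups did not overlap, which held for 55.6% of all genes. A log2 fold change of at least 1 in size was reached by 4 of the 8 (TGFB1, LTBP2, LTBP3 and NRROS), against 9.06% of all genes. The median log2 fold change of the 8 was 0.94, and that of all genes was 0.0063. In bulk RNA a change per cell and a change in the share of cells that express a gene cannot be told apart.

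**Figure D1:**
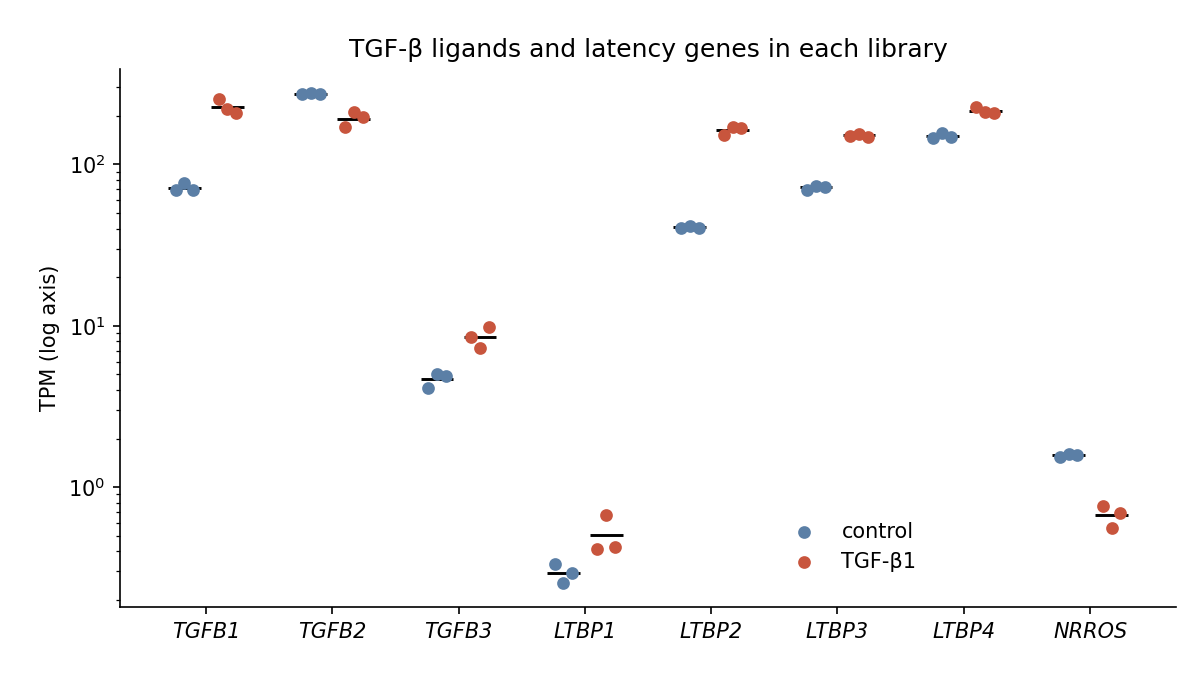
Deposited TPM (log axis) of the 8 tested genes in each of the 3 control (blue) and 3 TGF-β1 (red) libraries, with a line at each group mean; LRRC32, at 0 in 4 of the 6 libraries, is left out. TGFB1, TGFB3 and the 4 LTBPs sat higher in every TGF-β1 library than in any control library, and TGFB2 and NRROS sat lower.

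The ligands diverged. TGFB1, the form most tied to fibrosis, rose, TGFB2, the most abundant ligand of the control cells, fell, and TGFB3 rose from a low level. TGFB1 (chr19:41330323-41353922, minus strand) stood at 69.5, 76.4 and 69.2 TPM in control libraries 1, 2 and 3. With TGF-β1 it reached 255, 220 and 209 TPM. The groups lay far apart, and replicate 1 was the highest of the treated libraries. The means were 71.7 ± 4.09 and 228 ± 23.9 TPM (SD, n = 3 each), and the log2 fold change was 1.79 ± 0.09 (SE, adjusted p = 2.6e-07), a 3.46-fold rise.

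TGFB2 (chr1:218345336-218444619, plus strand) measured 274.4, 275.1 and 274.5 TPM in the control libraries, a spread below 1 TPM. After TGF-β1 it measured 170.7, 210.1 and 196.3 TPM. Every treated library was below every control library, replicate 1 being the lowest. The log2 fold change was -0.40 ± 0.06 (adjusted p = 4.4e-04). Replicate 1 of the TGF-β1 group thus held the highest TGFB1 and the lowest TGFB2. Without it the log2 fold changes were 1.67 for TGFB1 and -0.35 for TGFB2, and both calls were kept.

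TGFB3 (chr14:75958097-75983011, minus strand) had 110, 145 and 132 counts in control and 292, 220 and 259 counts with TGF-β1. In TPM these were 4.08, 5.04 and 4.89 against 8.53, 7.30 and 9.81. The groups did not overlap. The log2 fold change was 0.99 ± 0.13 (adjusted p = 1.4e-04), yet TGFB3 remained a small part of the ligand RNA in both groups.

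As shares of the summed ligand TPM, TGFB2 made up 78.8%, 77.1% and 78.7% in control and 39.3%, 48.0% and 47.3% with TGF-β1. TGFB1 made up 20.0%, 21.4% and 19.8% in control and 58.7%, 50.3% and 50.4% with TGF-β1. TGFB1, which carries the Arg-Gly-Asp codons printed above, thus passed TGFB2, which has none, in each treated library. TGFB3, which also carries them, moved from a mean of 1.33% to 2.00%. The mean TGFB2 share moved by -33.4 percentage points, from 78.2 ± 0.955% to 44.9 ± 4.81% (SD, n = 3 each, exact permutation test, two-sided, p = 0.1). That is the smallest p that 3 libraries against 3 allow. The summed ligand TPM moved less, from 351 ± 4.78 to 429 ± 12.1.

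The share of TGFB2 depends on its length. The transcript TGFB2-OT1 lies wholly inside the TGFB2 exons and covers 1370 bases, or 23.0%, of them, and it was listed at 0 in every library. How reads in that stretch were assigned is not given in the sources used here. With those bases taken off the TGFB2 length, a choice made after seeing the data, the TGFB2 share was 82.4 ± 0.816% in control and 51.3 ± 4.90% with TGF-β1. The TGFB1 to TGFB2 ratio in treated cells then fell from 1.20 ± 0.252 to 0.926 ± 0.194, so which ligand led after treatment rested on that length. The fall of TGFB2 itself did not, since its length is the same in both groups. The antisense TGFB2-AS1 shares 129 bases of TGFB2 exon and had 6 to 13 counts a library, with a log2 fold change of -0.30 ± 0.36 that was not called (adjusted p = 0.53). Whether the counting used strand is not given in the sources used here, so reads in the shared bases cannot be assigned to either gene.

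**Figure D2:**
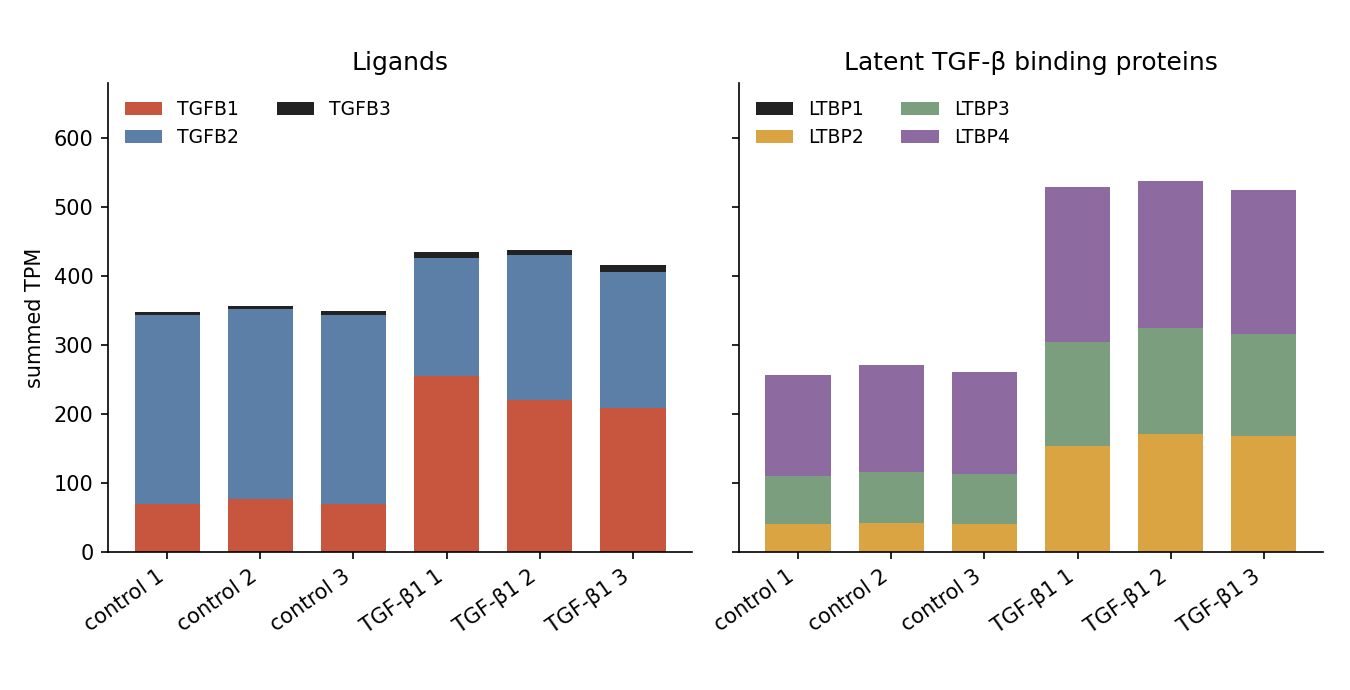
Summed TPM in each library, stacked by gene, for the 3 ligands (left) and the 4 LTBPs (right), with bars starting at 0. In the ligand bars TGFB2 held 77.1% to 78.8% in control and 39.3% to 48.0% after TGF-β1, and in the LTBP bars the total was 257 to 272 in control and 524 to 537 after TGF-β1; LTBP1, at 0.675 TPM or less, is too thin to see.

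All 4 LTBP genes were called higher, by unequal amounts. LTBP2 rose most, LTBP3 and LTBP4 less, and LTBP1 stayed near the limit of detection. LTBP2 (chr14:74498183-74612593, minus strand) measured 40.3, 41.5 and 40.5 TPM in control and 153, 170 and 167 TPM with TGF-β1. Both groups were tight and far apart. The log2 fold change of 2.12 ± 0.05 (adjusted p = 6e-10), a 4.34-fold rise, was the largest of the 8 tested genes.

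LTBP3 (chr11:65538559-65558389, minus strand), which helps cells secrete latent TGF-β, measured 69.6, 73.9 and 72.4 TPM in control. With TGF-β1 it measured 151, 154 and 148 TPM, and the groups did not overlap. The log2 fold change was 1.19 ± 0.05 (adjusted p = 1.9e-08).

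LTBP4 (chr19:40593166-40629820, plus strand), known for elastic fibre assembly as well as for latent TGF-β1, was the most abundant LTBP in both groups. It measured 147, 156 and 148 TPM in control and 225, 213 and 208 TPM with TGF-β1. No treated library reached down to the control range. The log2 fold change was 0.64 ± 0.06 (adjusted p = 1.1e-05).

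LTBP1 (chr2:32902129-33399509, plus strand), the LTBP through which latent TGF-β is classically held on fibronectin and fibrillin, was at a low level. It had 16, 13 and 14 counts in control and 25, 36 and 20 counts with TGF-β1. In TPM that is 0.336, 0.255 and 0.293 against 0.412, 0.675 and 0.428. The groups did not overlap, and the log2 fold change was 0.89 ± 0.27 (adjusted p = 0.022). The call did not hold with DESeq2 (adjusted p = 0.12). It was also lost without control replicate 2 (log2 fold change 0.80, adjusted p = 0.082), without control replicate 3 (0.87, adjusted p = 0.064) and without TGF-β1 replicate 2 (0.64, adjusted p = 0.12).

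Among the 4 LTBPs the make-up shifted toward LTBP2. Its share of the summed LTBP TPM was 15.7%, 15.3% and 15.5% in control and 28.9%, 31.7% and 31.9% with TGF-β1. The share of LTBP4 went from 57.0 ± 0.386% to 40.6 ± 1.67%, and that of LTBP3 from 27.3 ± 0.348% to 28.5 ± 0.168% (SD, n = 3 each). These 3 shares did not overlap between groups, and each gave the smallest exact permutation p of 0.1. LTBP1 held 0.112 ± 0.0183% and 0.0951 ± 0.0265%, and its groups overlapped (exact permutation p = 0.4).

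Set against the ligands, the LTBPs known to bind a latent ligand, if only weakly (LTBP1, LTBP3 and LTBP4), gave 0.622, 0.646 and 0.633 TPM per TPM of ligand in control. With TGF-β1 the ratio was 0.867, 0.839 and 0.860. The ratio was higher in each treated library, with means of 0.634 ± 0.0116 and 0.855 ± 0.0147 (SD, n = 3 each, exact permutation p = 0.1, the smallest possible). With LTBP2 counted too, it went from 0.750 ± 0.0120 to 1.24 ± 0.0229. LTBP4, the weak binder of latent TGF-β1, was the largest part of the LTBP sum, at means of 150 TPM in control and 215 TPM with TGF-β1. LTBP3 had 72.0 and 151 TPM. The first ratio is thus not a measure of carrying capacity for all 3 ligands. These are ratios of RNA, and no protein was measured here.

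The surface anchors were scarce, and neither rose by a test. NRROS (chr3:196639694-196662004, plus strand) fell, from 27, 30 and 28 counts in control to 17, 11 and 12 counts with TGF-β1. In TPM it went from 1.53, 1.59 and 1.58 to 0.758, 0.558 and 0.694. The groups did not overlap, and the log2 fold change was -1.10 ± 0.24 (adjusted p = 0.0036). NRROS is known from myeloid cells, so the myeloid markers are given beside it. Of 7, AIF1 and TYROBP had 0 reads in every library and PTPRC at most 2. CD14 fell and CSF1R rose, by log2 fold changes of -1.72 (adjusted p = 2.1e-04) and 2.55 (adjusted p = 4.3e-09), and the summed level of the list was 6.99 to 7.71 CPM (library-scaled counts) in control and 24.2 to 27.3 CPM with TGF-β1. CSF1R alone made that difference, at a mean of 4.19 CPM in control and 24.6 CPM with TGF-β1. LYZ (4, 5 and 8 counts against 2, 1 and 1) and ITGAM (8, 13 and 1 against 2, 4 and 2) were below the count filter. The part of such cells in the NRROS values was not tested.

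LRRC32 (chr11:76657524-76670747, minus strand) had 0 reads in each control library and 1, 3 and 0 reads in the TGF-β1 libraries. That is 0 of 67.9 M reads against 4 of 73.8 M, with p = 0.126 by the exact conditional binomial test and p = 0.4 by the exact permutation test, both two-sided. With 4 reads the smallest p of the conditional test is 0.0527. That of the permutation test is 0.1 without ties, and with the ties at 0 seen here it is the 0.4 found. Neither test could therefore pass 0.05 at this depth. A floor of 3 counts corresponds to 0.0689 to 0.0894 TPM in a library, and this limit covers counting error only. Of the markers of cells that carry LRRC32, CD3E, CD3D, IL2RA, PF4 and GP9 had 0 reads in every library. CTLA4 and PPBP had at most 1 read in a library. FOXP3 had 1, 3 and 6 counts in control and 4, 5 and 4 with TGF-β1, and CD4 had 5, 4 and 5 against 1, 2 and 2. The platelet marker ITGA2B had 12, 20 and 20 counts against 11, 8 and 9, and was called lower (log2 fold change -0.89, adjusted p = 0.039). The summed level of the 6 lymphocyte markers was 0.266 to 0.511 CPM in control and 0.192 to 0.290 CPM with TGF-β1, and that of the 4 platelet markers 0.576 to 0.852 and 0.331 to 0.461 CPM. The 6 endothelial markers summed to 27.3 to 33.2 CPM and 28.6 to 33.8 CPM, nearly all of it EGFL7. CDH5 had 29, 16 and 17 counts in control and 0 in each treated library, and it was called lower (adjusted p = 1.7e-04). PECAM1 had 5, 4 and 5 counts in control and 0 in each treated library.

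LTBPs are also made by fibroblasts, so that list is given too. Its 6 markers summed to 59.8 to 69.2 CPM in control and 56.8 to 58.1 CPM with TGF-β1. Most of it was LUM, which fell (log2 fold change -0.28, adjusted p = 0.0066). COL1A2 had 1 read in all 6 libraries together and PDGFRA at most 2 in a library. Of the 3 markers tested, 2 were called lower and 1 higher, against 22.1% and 22.2% of all genes. THY1 fell by 1.72 on the log2 scale (adjusted p = 0.0016), while PDGFRB rose by a log2 fold change of 3.38 (adjusted p = 1.1e-07). The part of other cell types in the LTBP changes was not tested.

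In order of TPM, the control cells had TGFB2 first, then LTBP4, then LTBP3 and TGFB1, then LTBP2, TGFB3, NRROS, LTBP1 and LRRC32. LTBP3 and TGFB1 had overlapping libraries at means of 72.0 and 71.7 TPM and could not be ordered. With TGF-β1 the top of the order was TGFB1, LTBP4 and TGFB2, each overlapping the next, followed by LTBP2 and LTBP3, which overlapped too. Within each of the 3 treated libraries TGFB1 was above LTBP4, LTBP4 above TGFB2, and LTBP2 above LTBP3. The place of TGFB2 after treatment depends on the length used for it, as described above. TGFB3 stayed clear of its neighbours in both groups. NRROS and LTBP1, apart in control, overlapped after treatment at means of 0.670 and 0.505 TPM.

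The genes most like LTBP2 in pattern, by Pearson r of log2 CPM over the 6 libraries, were COL4A1, a basement membrane collagen chain (r = 0.9999), LMCD1 (0.9999) and the sialomucin gene PODXL (0.9998). Of 10718 genes averaging 5 CPM or more, 13.1% reached an r of 0.95 with LTBP2.

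The rest of the activation pathway was taken from lists of genes that process, release, anchor, bind or respond to TGF-β. Of 57 genes, 56 were in the tables and 44 were tested, and 35 of these (79.5%) were called, 28 higher and 7 lower, against 44.3% of all genes. Their median log2 fold change was 0.83. The lists were chosen with earlier results of these data known, so the share of 79.5% is not a test against that of all genes. The response genes were chosen as known TGF-β targets and are counted in that share. All 8 of them rose, from SKIL at 1.08 to PMEPA1 at 2.60, with the signalling inhibitor SMAD7 at 1.64 ± 0.09 (adjusted p = 1e-07). BHLHE40 (2.24), LMCD1 (2.18), TGFBI (2.33) and CCN2 (1.56) lay between.

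Of 6 convertase and processing genes, 4 were tested and 3 rose, against 22.2% of all genes called higher. FURIN, whose product cuts the sites printed above, measured 30.6, 32.9 and 32.3 TPM in control and 90.2, 88.5 and 82.9 TPM with TGF-β1. The groups did not overlap, and the log2 fold change was 1.57 ± 0.06 (adjusted p = 1.1e-08). The tolloid-type proteases, which cut LTBPs and procollagens, rose as well, TLL1 by 1.65 ± 0.10 and BMP1 by 0.62 ± 0.05 on the log2 scale. PCSK7 had a log2 fold change of 0.02 ± 0.09 (adjusted p = 0.9), and PCSK5 and PCSK6 had at most 6 counts in a library.

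The integrin partners went opposite ways. ITGB8, the β chain of αvβ8, measured 69.6, 73.2 and 74.6 TPM in control and 4.18, 4.66 and 4.89 TPM with TGF-β1. Its log2 fold change was -3.87 ± 0.06 (adjusted p = 7.2e-11). ITGB6, the β chain of αvβ6, measured 45.6, 45.5 and 53.1 TPM in control and 66.7, 84.9 and 78.1 TPM with TGF-β1, a log2 fold change of 0.79 ± 0.08 (adjusted p = 1.6e-05). ITGB8 RNA was thus above ITGB6 RNA in every control library and below it in every treated one.

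Their shared partner ITGAV rose from 335 ± 19.5 to 604 ± 84.6 TPM (SD, n = 3 each), a log2 fold change of 0.96 ± 0.08 (adjusted p = 4.2e-06). ITGB1 rose by 0.86, while ITGB3 and ITGB5, which also pair with αv, fell by 0.46 and 0.31 on the log2 scale. Thrombospondin 1, a matrix protein that can activate latent TGF-β, rose (THBS1, 0.59 ± 0.09, adjusted p = 3e-04), and its relative THBS2 fell by 0.54 on the log2 scale. In all, 4 of the 8 tested genes of this list rose and 4 fell, against 22.2% and 22.1% of all genes.

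Of the protease activators, 4 of 5 tested rose, against 22.2% of all genes called higher. MMP2, a gelatinase, went from 0.319, 0.398 and 0.388 TPM to 4.90, 4.15 and 4.95 TPM, with a log2 fold change of 3.77 ± 0.18 (adjusted p = 5e-08). MMP9 and the membrane protease MMP14, which works with αvβ8, rose by log2 fold changes of 1.65 and 1.09, and PLAU by 0.51. MMP9 stayed under 3 TPM in every library. PLAUR was not called (-0.07, adjusted p = 0.51), and PLG, which encodes plasminogen, had 0 reads.

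Of the matrix proteins on which LTBPs dock or are cross-linked, 7 of 10 tested rose and none fell. Across all genes 22.2% were called higher and 22.1% lower. Fibronectin (FN1) went from a mean of 6051 to 11018 TPM (log2 fold change 0.98 ± 0.08, adjusted p = 1.8e-06). Fibrillin 1 (FBN1) measured 60.6, 67.7 and 69.2 TPM in control and 72.3, 108 and 106 TPM with TGF-β1, so that replicate 1 of the TGF-β1 group lay just above the control range (0.65 ± 0.14, adjusted p = 0.0089). MFAP2, a microfibril component, rose by 1.33, the transglutaminase TGM2 by 0.89, and the fibulins FBLN5, FBLN2 and FBLN1 by 1.66, 1.01 and 0.42 on the log2 scale. Fibrillin 2 (FBN2, -0.06), MFAP5 (-0.11) and ADAMTSL3 (0.21) were not called.

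**Figure D3:**
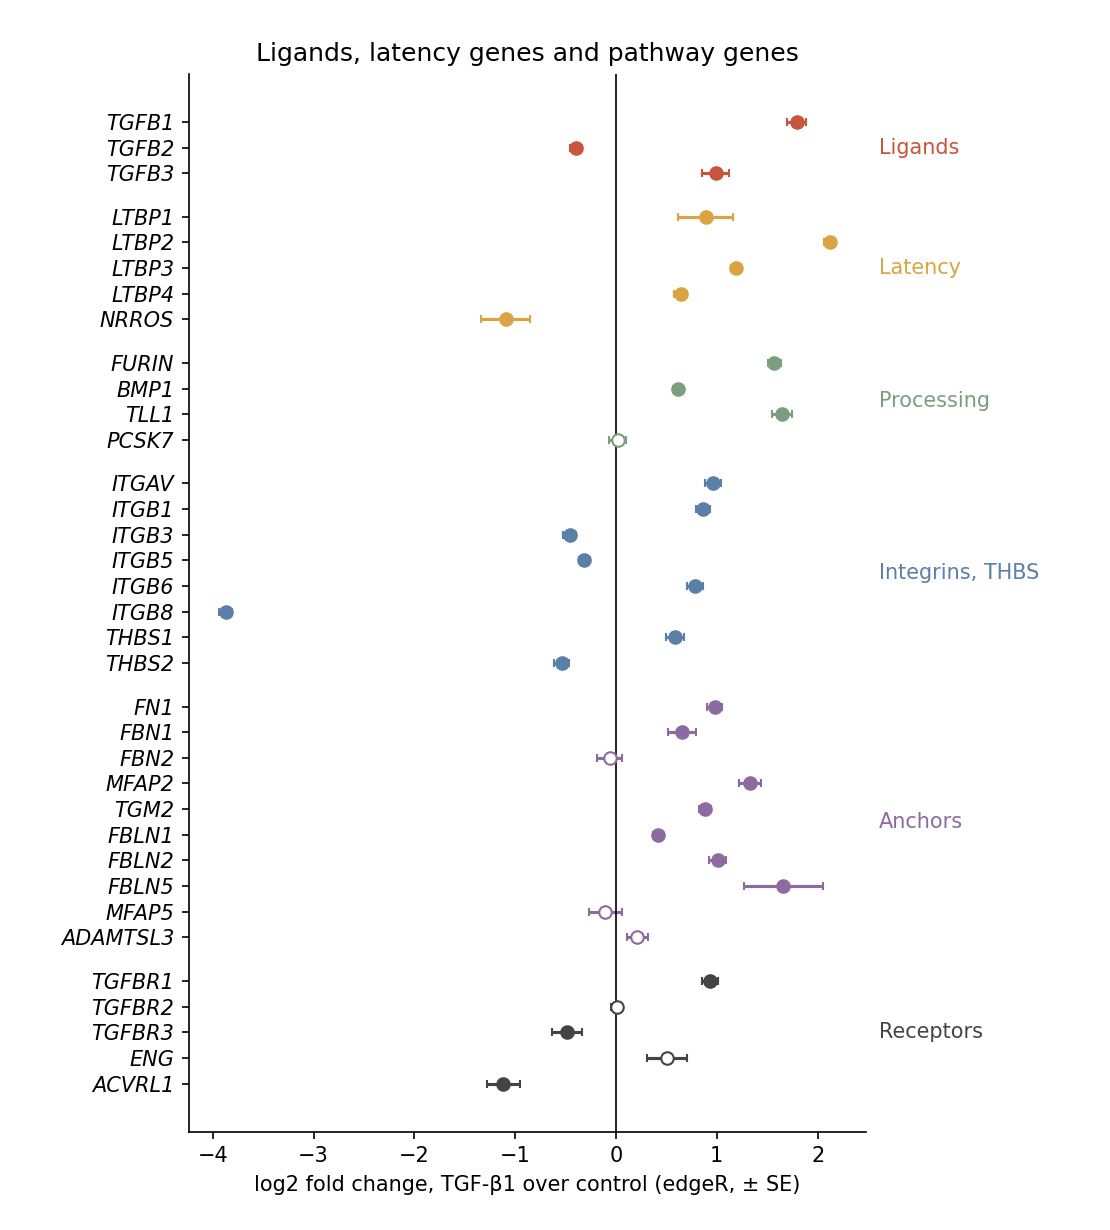
Log2 fold change of TGF-β1 over control (edgeR, bars ± SE) for the 8 tested ligand and latency genes and for every tested gene of the processing, integrin and thrombospondin, matrix anchor and receptor lists; filled points were called at an adjusted p under 0.05 and open points were not. LTBP2 at 2.12 was the largest rise and ITGB8 at -3.87 the largest fall among the genes drawn.

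Among proteins that bind active TGF-β, the proteoglycan BGN rose by 1.30 on the log2 scale (adjusted p = 0.0036), at 1.54 to 2.71 TPM in control and 3.32 to 5.80 TPM with TGF-β1. CD109, a co-receptor that dampens signalling, fell by 0.39 on the log2 scale (adjusted p = 0.023). The other 4 genes of that list were not tested. For the receptors, TGFBR1 rose by 0.93 ± 0.08 (adjusted p = 3.8e-06) and TGFBR2 had a log2 fold change of 0.01 ± 0.06 (adjusted p = 0.95). TGFBR3, or betaglycan, the co-receptor that TGF-β2 depends on most, fell by 0.49 on the log2 scale (adjusted p = 0.023). ACVRL1 fell by 1.12 on the log2 scale (adjusted p = 2.3e-04), and ENG, at 0.51 ± 0.20, was not called (adjusted p = 0.058).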

How the data were processed

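Poly(A) RNA of 3 control and 3 TGF-β1 libraries of HK-2 cells was sequenced. The raw counts per gene were deposited, and the TPM and FPKM values beside them were computed by the authors from counts and gene length. The submitters' processing notes name CASAVA, featureCounts 2.0.1, DESeq2 1.16.1 and the build hg38. The aligner and the strand setting are not given in the sources used here. Per file, 7 broken records were rejoined, and 598 loci without a name (0.396% to 0.464% of counts) were left out.

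Counts were filtered with filterByExpr of edgeR 4.0.16 (minimum count 10), scaled by TMM and compared with the robust quasi-likelihood F test, two-sided, with Benjamini-Hochberg adjustment over 14860 genes. The SE was the log2 fold change divided by the square root of F. The test was also run on simulated counts in which few genes changed, so that run does not cover a response as broad as this one. TPM as deposited was used for levels, shares and ratios, which were compared by exact permutation. Nothing states that the replicates were separate cultures, so p-values measure the spread between these libraries, which may be technical.

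All 9 genes were named. From the pathway lists, genes called with a log2 fold change of at least 1 in size were named, together with ITGAV, ITGB6, ITGB8, FURIN, THBS1, FN1, FBN1 and SMAD7. Others were named for the completeness of their list or after their values were seen. Genes sharing exon bases with one of the 9, and the 3 most like LTBP2, were named too. Some genes that this rule names are not reported here. The genes and lists were chosen with earlier results of these data known. Alternatives were DESeq2 1.42.0, limma-voom (limma 3.58.1), RLE size factors, total counts only, other count filters, a replicate block, FPKM for TPM, each library left out and, added after seeing the data, a shorter TGFB2 length. Other software was R 4.3.3, Python 3.11.15, pandas 2.3.3 and scipy 1.17.1.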

Additional observations from a re-analysis of the deposited data

How the results depend on the processing

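Of 102 alternative log2 fold changes of the 8 tested genes, 98 kept both sign and call, 0 reversed and 4 lost the call, all 4 of LTBP1. LTBP1 and NRROS were not tested when the filter asked for a mean count of 50, and 6 of the 9 genes were then called. Across alternatives 6 to 8 of them, 33 to 38 pathway genes and 5333 to 7196 of all genes were called, against 8, 35 and 6582. Leaving out each library gave 7 to 8, 33 to 38 and 5333 to 7196. Besides the 8 genes, alternatives were followed gene by gene only for pathway genes called with a log2 fold change of at least 1 in size. ITGAV, ITGB6, THBS1, FN1 and FBN1 were added to them. All 310 of their values kept their call. Other genes named here, such as CD109, TGFBR3 and ENG, were not followed in this way. Scaling by total counts only moved the median of all genes by -0.11 and reversed no direction among the genes followed. The change of the TGFB2 share ranged from -35.0 to -30.6 percentage points when a library was left out. That of the LTBP to ligand ratio, 0.221, ranged from 0.216 to 0.230 and became 0.241 with the shorter TGFB2 length, which lowers the ratio in both groups (to 0.513 and 0.754). With the replicate block 8 of the 9 genes, 36 pathway genes and 6790 genes were called. The deviations of same-numbered libraries correlated at 0.113, -0.0117 and 0.0812, so the numbers were not taken to pair the libraries. Depth limits LTBP1 and NRROS, at 11 to 36 counts a library, and LRRC32, at 0 to 3.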

Other observations

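Beside LTBP2, on the opposite strand and 591 bases from its annotated start, lies the RNA gene LOC101928352 (chr14:74613185-74616668). It was picked out after its values were seen. It had 26, 14 and 15 counts in control and 89, 105 and 84 counts with TGF-β1. The groups did not overlap, and the log2 fold change was 2.31 ± 0.25 (edgeR quasi-likelihood F test, adjusted p = 2.9e-05), next to 2.12 ± 0.05 for LTBP2. The neighbour of TGFB1 on the same strand, B9D2, ends 494 bases from the TGFB1 start and had 89 to 112 counts in control and 80 to 88 with TGF-β1, with a log2 fold change of -0.26 ± 0.14 that was not called (adjusted p = 0.16).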
